A study of Mus musculus with 16 samples.

Results

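The collagen genes were taken by name, as every gene in the deposited FPKM table whose symbol reads Col, a number, the letter a and a number. This gave 44 genes of 18929. They were divided by structure into 11 fibrillar collagens, 8 basement membrane collagens (6 type IV chains and the multiplexins Col15a1 and Col18a1) and 25 other collagens, which include the type VI chains, the FACIT collagens that attach to fibrils, and the transmembrane collagens.

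Messenger RNA was measured in 16 tumors grown from B16F10, a mouse melanoma cell line, placed by injection on the right side of the abdomen in C57BL/6 females aged 7 to 8 weeks. The 4 groups of 4 tumors were vehicle (corn oil with an IgG isotype control), PD1 mAb (an antibody against the T cell checkpoint receptor PD1), α-KG (α-ketoglutarate at 100 mg/kg) and α-KG + PD1 mAb, called the combination here, all given into the peritoneum for 9 to 11 days. The hosts were immunocompetent and carried no transgene, and the labels list each tumor as a sample of its own without naming litters or batches, so p-values measure the spread between these tumors. The comparisons ask how α-KG changed the response to PD1 blockade, and those with vehicle share the same 4 vehicle tumors.

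Collagens are secreted proteins whose chains wind into triple helices, 3 chains to a molecule. Fibrillar types such as I, III and V form the tensile fibers of connective tissue and are made mainly by fibroblasts, while type IV chains form the sheet-like network of basement membranes, made largely by endothelial and epithelial cells. α-KG is a cosubstrate of the prolyl and lysyl hydroxylases that modify new collagen chains before secretion, so collagen biosynthesis consumes the molecule that was given to these mice.

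Few collagen genes were well expressed in these tumors. A gene was tested when it reached 0.5 FPKM (fragments scaled by transcript length and by the mapped fragments of the library) in at least 4 tumors. Of the 44 collagen genes 23 passed this filter, namely 8 of 11 fibrillar, 6 of 8 basement membrane and 9 of 25 other collagens. A mean of 1 FPKM in at least 1 group was reached by 17 genes and a mean of 5 FPKM by 5 genes. The 21 genes left out never exceeded 0.75 FPKM in any tumor, and 7 of them were listed at 0 in 8 or more tumors. At the edge of the filter, Col6a3 and Col9a2 passed with exactly 4 tumors, of which 3 of the Col9a2 tumors were combination tumors, while Col7a1 reached 0.5 FPKM in 2 tumors, both of the combination, and was left out.

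On the FPKM scale, which is per length and can be compared between genes, the most abundant collagen was not a fibrillar chain. Col16a1 (type XVI, a FACIT collagen) had a mean of 16.1 FPKM over all 16 tumors, Col4a1 9.36, Col4a2 7.15, Col1a1 4.69 and Col15a1 3.88. Outside the combination Col16a1 and Col4a1 were closer, with means of 12.1 and 10.5 FPKM in vehicle, 13.4 and 9.33 in PD1 mAb and 10.7 and 10.4 in α-KG. The labelled tissue showed its defining markers, since the summed level of 7 melanocyte genes was 7845 to 10572 FPKM in every tumor. Markers of the usual collagen producers were measured in part. The 13 fibroblast markers summed to 81 to 172 FPKM over all tumors, with 8 of 13 tested and 4 (Pdgfra, Fap, Dpt and Fbln2) under 1 FPKM in every tumor. The 10 endothelial markers summed to 16 to 29.5 FPKM, with 4 of 10 tested and 7 under 1 FPKM in every tumor.

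The summed level of the 44 genes was 65.5, 109, 84 and 93.2 FPKM in combination tumors 1 to 4, against 48 to 79.4 in vehicle, 46.9 to 66.4 in PD1 mAb and 45.3 to 58.1 in α-KG tumors. Vehicle 1, vehicle 4 and PD1 mAb 3 lay above combination 1, so the combination overlapped vehicle and PD1 mAb and did not overlap α-KG. The parts of this sum differed. The 25 other collagens summed to 29.4 to 48.6 FPKM in the combination against 14 to 27.3 in the remaining 12 tumors, with no overlap, whereas the 8 basement membrane collagens summed to 17.3 to 33.9 FPKM in the combination and to 21.3 to 29.9 in the remaining tumors. In whole tumor tissue, a change in the number of cells of a type and a change in RNA per cell cannot be told apart.

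On the deposited scale the collagens called higher in the combination were type V, IX, XI, XV, XVI, XX and XXVII chains, while no chain of types I, III or VI passed with all 16 tumors. Against vehicle, 8 of 23 tested collagen genes were higher and 1 was lower, where 34.9% of the 12850 genes tested were higher and 10.5% were lower. The share of collagens that rose was near that of all genes. In 5 genes (Col9a3, Col11a2, Col16a1, Col20a1 and Col27a1) every combination tumor lay above every vehicle tumor, where 28.2% of all genes did so, and 0 lay below without overlap, where 6.55% did. The 8 genes were the fibrillar Col11a2, Col5a3 and Col27a1, the multiplexin Col15a1, and the FACIT collagens Col16a1, Col9a3, Col20a1 and Col9a2. The median difference of the 23 collagens was 0.21 on the log2(FPKM + 1) scale, against 0.15 for all genes tested.

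Col16a1 lies on chromosome 4 (chr4:130047817-130099277, GRCm38.p6) and encodes a FACIT collagen found where cells meet matrix. Its level was 18.1, 10.1, 10 and 10.1 FPKM in vehicle tumors 1 to 4, 8.83, 20.2, 13.7 and 10.7 in PD1 mAb, 11.3, 11.8, 8.33 and 11.2 in α-KG, and 22.1, 34.7, 28.9 and 27.8 in the combination. The lowest combination tumor lay above the highest tumor of each other group. The mean rose from 12.1 ± 3.99 (SD, n = 4) to 28.4 ± 5.18 FPKM, a log2 difference of 1.19 ± 0.22 (SE) with an adjusted p of 0.001.

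Col11a2 (chr17:34038919-34066684) encodes a chain of type XI collagen, a fibrillar collagen of cartilage. It had the largest log2 difference of the 23 genes in this comparison. Its level was 0.97, 0.52, 0.58 and 0.49 FPKM in vehicle, 0.42, 1.51, 1.1 and 0.73 in PD1 mAb, 0.67, 1.06, 0.85 and 0.67 in α-KG, and 2.37, 5.24, 2.91 and 3.55 in the combination. Again no tumor of another group reached the combination. The log2 difference was 1.43 ± 0.19 with an adjusted p of 0.000417. The mean was 5.5-fold higher on the FPKM scale.

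Col9a3 and Col9a2 encode chains of type IX collagen, a FACIT collagen that coats the fibrils of cartilage. Col9a3 (chr2:180598102-180622192) was at 1.03, 0.45, 0.77 and 0.53 FPKM in vehicle, 0.41, 1.08, 0.64 and 0.62 in PD1 mAb, 0.49, 0.48, 0.65 and 0.76 in α-KG, and 1.61, 3.63, 2.98 and 2.27 in the combination. The combination did not overlap any other group, and the log2 difference from vehicle was 1.08 ± 0.17 (adjusted p = 0.000476). Its transcript overlaps Tcfl5 by 234 bases on the opposite strand, so without stranded counting their reads could not be told apart there. Col9a2 was lower throughout, with means of 0.405 ± 0.14 in vehicle and 0.73 ± 0.194 in the combination, and its groups overlapped. Its log2 difference of 0.30 ± 0.11 (adjusted p = 0.0398) lost its call without vehicle 1, 2 or 3 or combination 2, 3 or 4. The third chain, Col9a1, was at 0.955 ± 0.514 in vehicle and 0.335 ± 0.328 in the combination, a log2 difference of -0.54 ± 0.22 with an adjusted p of 0.055. The difference of Col9a2 changed sign under quantile normalization, centering on tumor medians and removal of GC content and length.

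Col20a1 (chr2:180983323-181017545) encodes another FACIT collagen. It was at 1.46, 0.77, 0.83 and 0.82 FPKM in vehicle, 0.68, 1.82, 1.2 and 0.91 in PD1 mAb, 1.04, 0.99, 0.75 and 0.97 in α-KG, and 1.53, 4.14, 2.66 and 2.69 in the combination. Combination 1 stood just above vehicle 1 and below PD1 mAb 2. The log2 difference from vehicle was 0.90 ± 0.19 (adjusted p = 0.00219). Col20a1 shares 741 bases with a transcript on its own strand, so part of its reads could not be assigned with certainty.

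Col15a1 (chr4:47207655-47313167) encodes a multiplexin that links basement membranes to the matrix around vessels and muscle. It was at 4.46, 2.49, 1.75 and 2.36 FPKM in vehicle, 2.06, 5.09, 4.49 and 2.71 in PD1 mAb, 2.72, 2.72, 1.52 and 2.65 in α-KG, and 3.25, 10, 6.19 and 7.56 in the combination. Combination 1 fell within the vehicle range and the other 3 combination tumors lay above all other tumors. The log2 difference was 1.01 ± 0.29 (adjusted p = 0.0108). Col18a1, the other multiplexin and the precursor of endostatin, was at 1.23 ± 0.648 in vehicle and 0.623 ± 0.166 in the combination and did not pass (adjusted p = 0.0975).

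Col5a3 (chr9:20770050-20815117) encodes a chain of type V collagen, which nucleates type I fibers. It was at 3.17, 1.81, 1.82 and 2.04 FPKM in vehicle, 1.08, 2.49, 1.75 and 1.44 in PD1 mAb, 1.53, 1.19, 1.37 and 1.71 in α-KG, and 2.59, 6.54, 3.99 and 4.52 in the combination. Combination 1 fell below vehicle 1 and above every PD1 mAb and α-KG tumor. The log2 difference from vehicle was 0.72 ± 0.20 (adjusted p = 0.0105). Col27a1, a fibrillar collagen of developing cartilage, went from 0.33 ± 0.203 FPKM in vehicle to 1.21 ± 0.489 in the combination with no overlap, a log2 difference of 0.72 ± 0.18 (adjusted p = 0.00582).

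**Figure D1:**
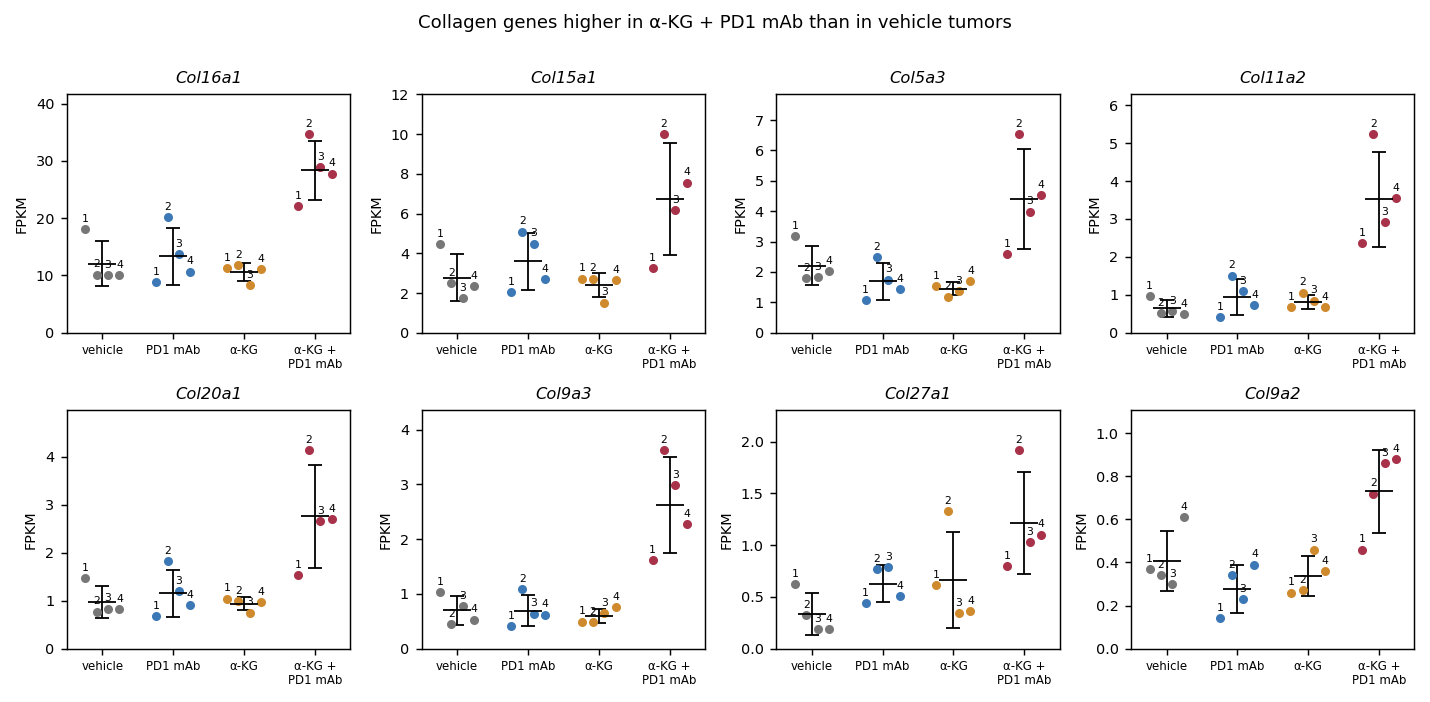
Level in FPKM (y axes, each from 0) of the 8 collagen genes higher in the combination than in vehicle, with 1 point per tumor numbered by replicate, a bar for the group mean and whiskers for 1 SD (n = 4). Combination tumors 2, 3 and 4 stand at or near the top of each panel and combination 1 is the lowest of its group in all 8, and the rise of Col9a2 was lost, with a change of sign, under quantile normalization, centering on tumor medians and removal of GC content and length.

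The 8 genes shared their order among tumors of a group. Combination 1 was the lowest combination tumor for 8 of 8 genes and combination 2 the highest for 7. PD1 mAb 1 was the lowest of its group for 8 of 8 and PD1 mAb 2 the highest for 6, and vehicle 1 was the highest vehicle tumor for 7 of 8. The α-KG tumors showed no such order. For Col1a1, Col1a2, Col3a1, Col6a1 and Col6a2, combination 1 was the lowest of its group for 1 and PD1 mAb 1 for 2. For the 10 remaining tested collagens, combination 1 was the lowest of its group for 6 and PD1 mAb 1 for 5. The order was thus shared in part by those 10, and it was not compared with that of all genes. Combination 1 and combination 3 had the highest summed leukocyte markers of all tumors, 871 and 893 FPKM over 5 genes, against 336 and 237 in combination 2 and 4, and the part of leukocytes in this order was not tested.

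Several of the 8 genes are known from cartilage, where type IX and XI collagens coat and nucleate fibrils. The 4 measured genes of a cartilage and bone list summed to 0.04 to 1.76 FPKM in the combination and 0.39 to 1.88 in vehicle, and Acan, Comp and Matn1 were under 1 FPKM in every tumor. Col2a1, the main fibrillar collagen of cartilage, was at 0.917 ± 0.169 FPKM in vehicle and 0.968 ± 0.353 in the combination (log2 difference 0.02, adjusted p = 0.921). Other marker lists differed between vehicle and combination in either direction or not at all, and their part in the result was not tested. Their counts below are as deposited, where 34.9% of all genes were higher and 10.5% lower. When centered, 17.1% of all genes were higher and 37.4% lower. Fibroblast genes summed to 81 to 139 FPKM in vehicle and 94.6 to 172 in the combination, with overlap, and 2 of 8 tested were higher and 0 lower. Endothelial genes summed to 17.2 to 22.2 and 16 to 28.3 FPKM, with 2 of 4 tested higher and 0 lower. Leukocyte genes summed to 38.1 to 158 and 237 to 893 FPKM, 5 of 5 higher, and adipocyte genes to 1.4 to 2.33 and 2.75 to 4.65, with the 1 tested gene higher. Schwann cell genes summed to 15.4 to 28.1 FPKM in vehicle and 32.2 to 41.3 in the combination, with all 3 tested members higher, T cell genes to 1.23 to 10.6 and 24.8 to 225, with 7 of 7 higher, and macrophage genes to 97.2 to 486 and 672 to 1617, with 7 of 7 higher. Red cell genes fell from 63152 to 107460 FPKM in vehicle to 10892 to 11752 in the combination, 7 of 7 lower. Skeletal muscle genes summed to 51 to 659 and 4.17 to 63.7 FPKM, with 6 of 6 tested lower. Melanocyte genes summed to 8288 to 10090 and 7845 to 9646, with 2 of 7 lower and 0 higher. Myofibroblast and pericyte genes summed to 8.05 to 13.55 and 8.07 to 13.42, with 0 of 3 tested higher and 0 lower. The 5 keratinocyte genes were under 1 FPKM in every tumor.

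Promoter sequences are shown for 4 of the 8 genes, because they rose together and because they differ in base composition and motif content. Each is the stretch of 250 bases before the start listed in the RefSeq-based table for GRCm38.p6, written 5′ to 3′ on the strand of the gene. These starts lie inside the gene spans given above. The window of Col15a1, whose listed start is base 47208012, falls wholly within its span. Those of Col16a1, Col11a2 and Col5a3 reach into theirs. Capitals mark 4 motifs found on either strand, which do not overlap here. They are the GC box, spelled GGGCGG, the CCAAT box, the TATA box, spelled TATAAA, and the core of the M-box of pigment cell genes, spelled CATGTG. Of the 44 genes 35 were in the table, with 38 windows, and of the 23 tested genes 20.
Col16a1 (chr4:130047590-130047839, plus strand): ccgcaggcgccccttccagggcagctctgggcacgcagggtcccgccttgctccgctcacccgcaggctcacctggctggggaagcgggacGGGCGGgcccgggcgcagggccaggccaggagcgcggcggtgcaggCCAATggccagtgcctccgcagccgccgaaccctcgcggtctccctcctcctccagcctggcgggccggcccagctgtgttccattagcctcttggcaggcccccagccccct
Col11a2 (chr17:34038888-34039137, plus strand): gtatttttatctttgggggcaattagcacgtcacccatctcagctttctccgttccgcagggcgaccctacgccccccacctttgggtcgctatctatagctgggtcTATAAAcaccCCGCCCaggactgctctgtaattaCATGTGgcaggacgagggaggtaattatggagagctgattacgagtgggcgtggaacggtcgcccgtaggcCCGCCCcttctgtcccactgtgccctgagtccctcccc
Col5a3 (chr9:20815068-20815317, minus strand): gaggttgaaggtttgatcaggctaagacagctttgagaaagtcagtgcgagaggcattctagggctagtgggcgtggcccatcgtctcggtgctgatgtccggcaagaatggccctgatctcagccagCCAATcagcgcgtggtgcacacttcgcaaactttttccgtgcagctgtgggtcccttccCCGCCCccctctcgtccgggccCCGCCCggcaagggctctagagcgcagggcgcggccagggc
Col15a1 (chr4:47207762-47208011, plus strand): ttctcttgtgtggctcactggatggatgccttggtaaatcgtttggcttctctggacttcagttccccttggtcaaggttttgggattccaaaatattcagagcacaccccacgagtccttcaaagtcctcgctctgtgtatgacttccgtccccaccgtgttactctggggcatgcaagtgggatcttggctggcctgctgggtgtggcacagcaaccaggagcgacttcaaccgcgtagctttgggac

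The GC box stood in 57.9% of the 38 collagen windows and in 32.7% of all 32851 windows, and in 5 of 7 of the genes that rose against 6 of 13 of the other tested genes with a window. CCAAT stood in 34.2% of collagen windows and 33.8% of all. TATAAA stood in 13.2% and 12.4%, and CATGTG in 7.89% and 12.3%. TTCNNNGAA, the palindrome read by STAT proteins, stood in 5.26% of collagen windows and 7.02% of all windows. It was in 0 of the 7 genes that rose and in 0 of the 13 other tested genes with a window. These are matches of letters within 250 bases and are given as a description. In the Col16a1 window, 113 bases lie in an annotated exon of Gm12963. Col15a1 held none of the motifs, and its window had a GC content of 53.6%, against 75.6% for Col16a1.

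How far the rise of single genes stands depended on how tumors were put on a common scale, because the deposited values of all genes were on balance higher in the combination. The combination tumors had FPKM sums of 514180 to 527812, against 578171 to 635205 in vehicle. The median difference of all genes tested was 0.15 as deposited, 0.34 with each tumor rescaled to the same sum, 0.18 with that sum taken without hemoglobin genes, -0.16 with each tumor centered on its median, -0.11 after quantile normalization and -0.13 with GC content and length removed. The collagen split was 8 higher and 1 lower as deposited, 8 and 0 at the same sum, 8 and 1 without hemoglobin genes, 5 and 6 when centered, 4 and 7 after quantile normalization and 5 and 4 with GC content and length removed. Among all genes the shares higher and lower were 34.9% and 10.5% as deposited and 49% and 1.95% at the same sum. Without hemoglobin genes they were 35.9% and 8.68%, and when centered 17.1% and 37.4%. After quantile normalization they were 17.9% and 30.7%, and with GC content and length removed 18.4% and 35%. Col11a2, Col16a1 and Col9a3 were called higher under all 6 scalings. Col15a1 and Col20a1 lost the call after quantile normalization, Col5a3 under 3 scalings and Col27a1 under 2.

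**Figure D2:**
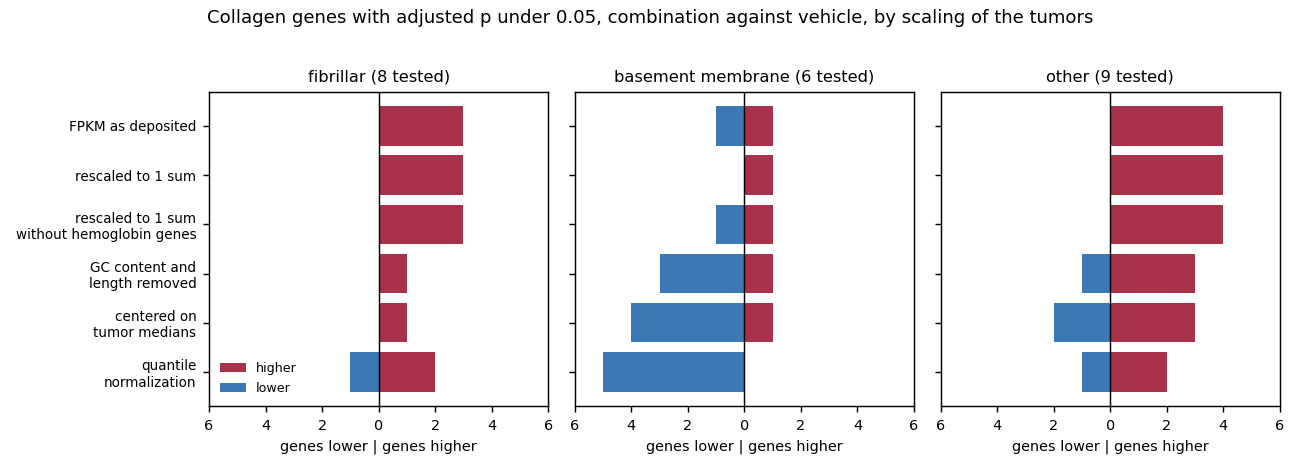
Number of collagen genes with an adjusted p under 0.05 in the combination against vehicle (x axes, lower to the left and higher to the right of 0), by class and by the scaling of the tumors (y axis). As deposited, 1 basement membrane gene was lower and 1 higher, whereas centering gave 4 lower and 1 higher and quantile normalization 5 lower and 0 higher. Among fibrillar genes, calls of higher levels went from 3 to 1 and 2. Of all genes, 10.5% were lower and 34.9% higher as deposited, 37.4% and 17.1% when centered and 30.7% and 17.9% after quantile normalization.

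For the main fiber chains the result against vehicle turned on 1 tumor, vehicle 4. Col1a1 (chr11:94936224-94953042) encodes the major chain of type I collagen, the bulk of connective tissue fibers. It was at 5.04, 2.44, 3.43 and 10.6 FPKM in vehicle, 3.85, 2.69, 5.41 and 3.9 in PD1 mAb, 3.31, 3.78, 3.64 and 3.82 in α-KG, and 5.75, 5.19, 7.18 and 4.99 in the combination. The 4 combination tumors lay above vehicle 2 and 3 and every α-KG tumor and below vehicle 4, and combination 4 lay just below vehicle 1. The log2 difference from vehicle was 0.23 ± 0.27 (adjusted p = 0.499) and from α-KG 0.54 ± 0.27 (adjusted p = 0.13). The difference from α-KG passed in a limma fit of these 2 groups alone (adjusted p = 0.00736). It also passed without vehicle 4 (adjusted p = 0.0285) and at the same FPKM sum (adjusted p = 0.0293).

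Vehicle 4 stood apart in its partners as well. Col1a2, the second chain of type I, was at 1.93, 1.02, 0.82 and 7.56 FPKM in vehicle and 2.66, 2.38, 3.34 and 2.12 in the combination. Col3a1, the only chain of type III collagen, was at 1.39, 0.69, 0.8 and 9.98 in vehicle and 2.67, 2.14, 2.19 and 1.66 in the combination. For both genes vehicle 1, 2 and 3 lay below every combination tumor and vehicle 4 lay far above all of them. Neither passed, with log2 differences of 0.22 ± 0.35 for Col1a2 and 0.07 ± 0.42 for Col3a1 (adjusted p = 0.641 and 0.901). Against α-KG neither passed in the fit over all tumors (adjusted p = 0.316 and 0.431). In a limma fit of the combination and α-KG tumors alone both were higher (adjusted p = 0.0384 and 0.0327), where 29.3% of all genes were. Skeletal muscle genes summed to 659 FPKM in vehicle 4, 51 to 68.3 in the other vehicle tumors, 2.51 to 4.16 in PD1 mAb and α-KG tumors and 4.17 to 63.7 in the combination. Their part in the high fiber chains of vehicle 4 was not tested.

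Without vehicle 4, 13 of 23 collagens were higher in the combination and 0 were lower, where 26.9% of all genes were higher. Col1a1, Col1a2, Col3a1, Col6a1 and Col6a2 passed in that fit. The log2 differences were 0.58 for Col1a1 (adjusted p = 0.0334), 0.70 for Col1a2 (0.0178) and 0.70 for Col3a1 (0.00978). Chains of type VI, which form beaded filaments beside the fibers, followed the same tumors. Col6a2 was at 0.86, 0.58, 0.34 and 1.7 FPKM in vehicle, 0.74, 0.79, 1.48 and 0.89 in PD1 mAb, 0.79, 0.98, 0.72 and 0.67 in α-KG, and 0.99, 1.28, 1.25 and 0.88 in the combination, and its log2 difference from vehicle was 0.21 ± 0.18 with all tumors (adjusted p = 0.341) and 0.41 without vehicle 4 (adjusted p = 0.044).

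The 2 chains of type I kept a narrow proportion in the combination, where Col1a2 was 0.425 to 0.465 of Col1a1 on the FPKM scale. It was 0.239 to 0.713 in vehicle, with the highest value in vehicle 4, 0.364 to 0.514 in PD1 mAb and 0.302 to 0.556 in α-KG. This proportion was not tested. Col5a1, the main chain of type V, was at 1.6, 1.05, 0.79 and 1.23 FPKM in vehicle, 0.67, 0.63, 0.58 and 0.75 in α-KG, and 1.13, 1.57, 1.33 and 1.53 in the combination. Every α-KG tumor lay below every vehicle and every combination tumor.

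**Figure D3:**
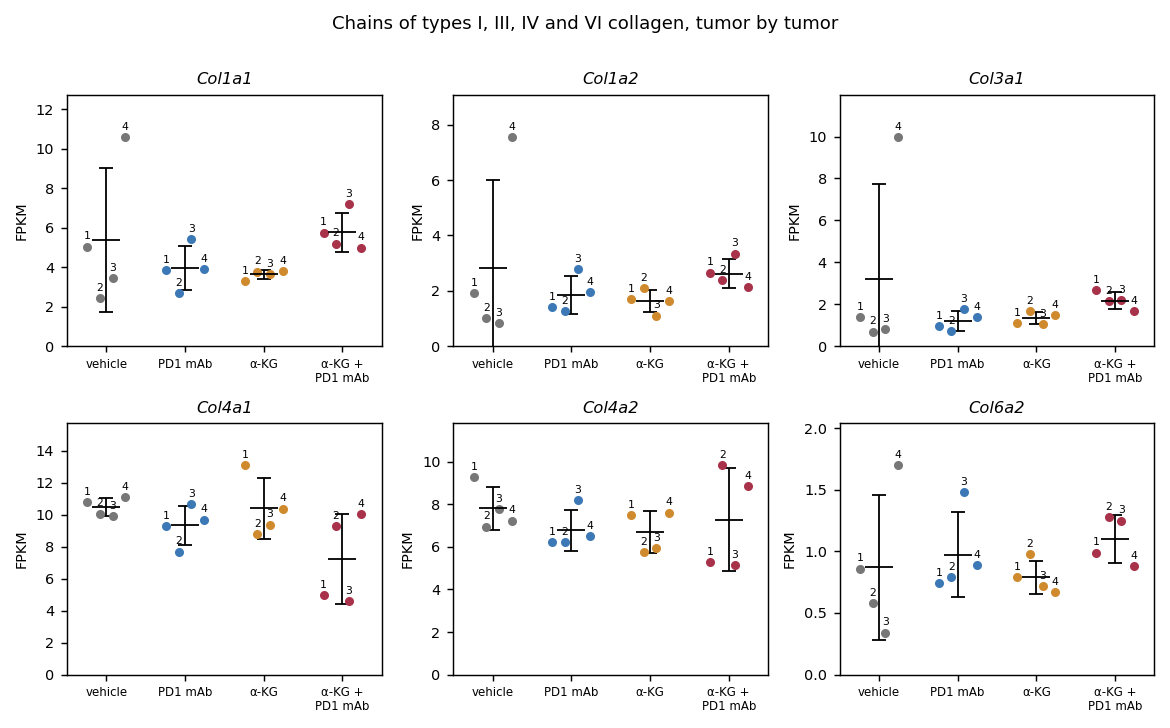
Level in FPKM (y axes, from 0) of chains of types I, III, IV and VI, with 1 point per tumor numbered by replicate, a bar for the mean and whiskers for 1 SD (n = 4), cut at 0 where the SD exceeds the mean. Vehicle 4 is the highest tumor for Col1a1, Col1a2, Col3a1 and Col6a2, and combination 1 and 3 are the lowest tumors for Col4a1 and Col4a2.

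Of the 4 tested type IV chains 1, Col4a1, was lower in the combination than in vehicle as deposited. Col4a1, Col4a2 and Col4a4 were called lower when centered, where 37.4% of all genes were lower. After quantile normalization Col4a5 was called lower as well, where 30.7% of all genes were. Col4a1 (chr8:11198423-11312889) encodes one of the chains found in nearly all basement membranes. It was at 10.8, 10.1, 9.91 and 11.1 FPKM in vehicle, 9.28, 7.69, 10.7 and 9.69 in PD1 mAb, 13.1, 8.79, 9.37 and 10.4 in α-KG, and 4.97, 9.28, 4.59 and 10.1 in the combination. Combination 1 and 3 were the lowest of all 16 tumors, while combination 2 lay just under the vehicle range and combination 4 within it, so the groups overlapped. The log2 difference from vehicle was -0.55 ± 0.19 (adjusted p = 0.0316). The call was lost without vehicle 1, 3 or 4 or combination 1 or 3, where adjusted p was 0.0504 to 0.113, and at the same FPKM sum (adjusted p = 0.169), with differences from -0.71 to -0.38 over the fits that left out 1 tumor. Combination 1 and 3 were also the tumors with the most leukocyte genes, whose part in the fall was not tested.

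Col4a2, its partner in the heterotrimer, starts 21 bases from Col4a1 on the other strand. It was at 9.27, 6.96, 7.78 and 7.24 FPKM in vehicle, 6.21, 6.22, 8.21 and 6.5 in PD1 mAb, 7.51, 5.76, 5.96 and 7.62 in α-KG, and 5.27, 9.84, 5.15 and 8.86 in the combination. The same combination tumors, 1 and 3, were low, and 2 and 4 were high. The log2 difference from vehicle was -0.13 ± 0.17 by limma as deposited (adjusted p = 0.56). It was -0.44 when centered (adjusted p = 0.0411) and -0.50 after quantile normalization (adjusted p = 0.0345). A ratio of FPKM within a tumor is unchanged when the whole tumor is multiplied by 1 factor. Quantile normalization, centering on the log2 scale and removal of GC content and length can change it. As deposited, Col4a2 over Col4a1 was 0.882 to 1.12 in the combination, 0.653 to 0.858 in vehicle, 0.669 to 0.809 in PD1 mAb and 0.574 to 0.735 in α-KG. The combination did not overlap any group. This ratio was chosen after its values were seen and was not tested.

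The remaining type IV chains differed in level more than between groups. Col4a4 was at 1.57 to 2.93 FPKM and Col4a5 at 1.41 to 2.54 over all 16 tumors. As deposited, neither passed in the combination against vehicle (adjusted p = 0.843 and 0.404). Col4a3, whose chain joins those of Col4a4 and Col4a5 in one heterotrimer, was at 0.01 to 0.13 FPKM. Col4a6 was listed at 0 in 13 tumors. The median difference of the 6 tested basement membrane collagens was -0.08, against 0.23 for the 8 fibrillar and 0.28 for the 9 other collagens, and -0.39, -0.09 and -0.03 when tumors were centered on their medians. Without vehicle 4 the medians were -0.12, 0.69 and 0.41, so the order of the fibrillar and other collagens turned on that tumor.

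The proportion of basement membrane to fiber was compared with the ratio of Col4a1 to Col1a1. On the FPKM scale it was 2.14, 4.12, 2.89 and 1.05 in vehicle, 2.41, 2.86, 1.97 and 2.48 in PD1 mAb, 3.95, 2.33, 2.57 and 2.71 in α-KG, and 0.864, 1.79, 0.639 and 2.01 in the combination. The combination lay below every α-KG tumor and overlapped PD1 mAb in 1 tumor. The mean log2 ratio, taken with 1 added to both levels, was 1.06 lower than in α-KG (two-sided exact permutation test, p = 0.0286, the smallest that 4 against 4 tumors allow), 0.85 lower than in PD1 mAb (exact p = 0.0571) and 0.78 lower than in vehicle (exact p = 0.143). Adjusted over 5 comparisons these were 0.143, 0.143 and 0.238, and none passed.

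**Figure D4:**
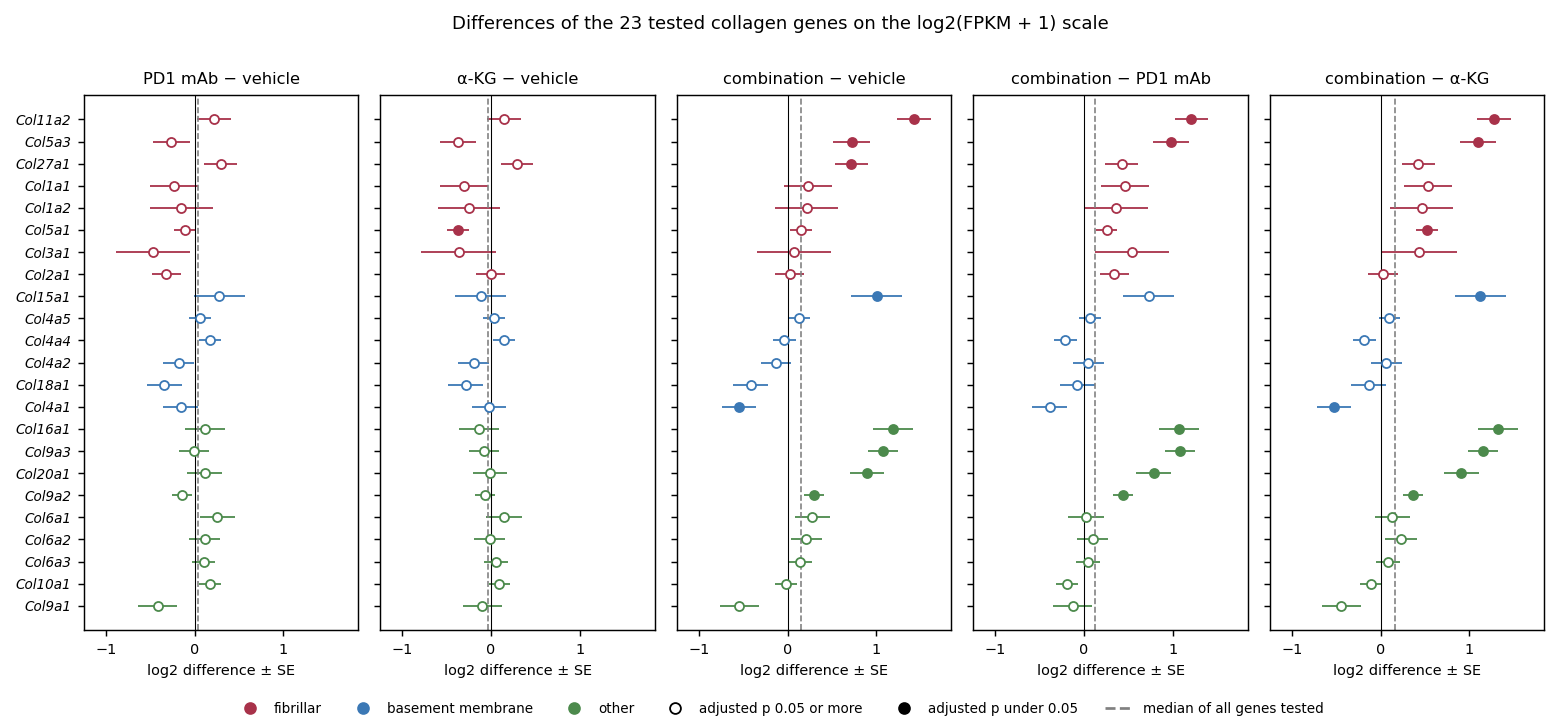
Difference on the log2(FPKM + 1) scale (x axes, point with SE) of each of the 23 tested collagen genes (y axis, by class) in 5 comparisons, with filled points for an adjusted p under 0.05 and a dashed line at the median of all genes tested. The 3 comparisons with the combination show 8, 6 and 8 genes higher, and the panel of PD1 mAb against vehicle shows no filled point. Under centering on tumor medians the higher genes of these 3 comparisons were 5, 5 and 6 and the lower 6, 3 and 4. Of all genes, 34.9%, 14.2% and 31.8% were higher in these 3 comparisons as deposited. When centered, 17.1%, 6.24% and 13.7% were higher and 37.4%, 15.3% and 24.3% lower.

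The single treatments changed few collagens. PD1 mAb against vehicle gave 0 of 23 genes by limma, with 0 at an unadjusted p under 0.05, where 0.467% of all genes were higher and 0.28% were lower. Col2a1 alone was lower in all PD1 mAb tumors than in all vehicle tumors, where 3.61% of all genes had lower groups without overlap (0.36 to 0.7 FPKM against 0.73 to 1.07, adjusted p = 0.345). α-KG against vehicle gave 0 higher and 1 lower gene, where 8.4% of all genes were higher and 7.53% lower. That gene was Col5a1, with a log2 difference of -0.37 ± 0.12 (adjusted p = 0.0471). This call was lost in 12 of 16 fits that left out 1 tumor, namely each α-KG tumor, vehicle 1, 2 or 4, PD1 mAb 2 or 4 and combination 2, 3 or 4, with differences from -0.46 to -0.28 over all 16 such fits. Col5a1 and Col5a3 were lower in every α-KG tumor than in every vehicle tumor, where 10.4% of all genes were.

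Each single treatment was also compared with the combination. Against PD1 mAb 6 of 23 genes were higher and 0 were lower, where 14.2% of all genes were higher and 1.31% lower. They were Col11a2 (log2 difference 1.21 ± 0.19, adjusted p = 0.00791), Col9a3 (1.08 ± 0.17), Col16a1 (1.08 ± 0.22), Col5a3 (0.98 ± 0.20), Col20a1 (0.79 ± 0.19) and Col9a2 (0.44 ± 0.11). In 6 genes every combination tumor lay above every PD1 mAb tumor, where 13.6% of all genes did so. Fitted on the 8 tumors of these 2 groups alone, 0 of 23 collagens and 0 of all genes passed, with adjusted p of 0.0507 to 0.0761 for these 6 genes. Without PD1 mAb 1 the count of collagens was 2, where 1.77% of all genes were called.

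Against α-KG 8 genes were higher and 1 was lower, where 31.8% of all genes were higher and 6.47% lower. Col16a1 (1.32 ± 0.22, adjusted p = 0.000869), Col11a2 (1.28 ± 0.19) and Col9a3 (1.15 ± 0.17) had the largest differences, followed by Col15a1 (1.12 ± 0.29), Col5a3 (1.10 ± 0.20), Col20a1 (0.91 ± 0.19), Col5a1 (0.53 ± 0.12) and Col9a2 (0.37 ± 0.11). Col4a1 was lower (-0.53 ± 0.19, adjusted p = 0.0431), a call lost in 9 of 16 fits that left out 1 tumor (vehicle 2, 3 or 4, PD1 mAb 4, α-KG 1, 3 or 4, or combination 1 or 3) and at the same FPKM sum. Groups that did not overlap were higher in the combination for 9 genes, Col1a1 and Col1a2 among them, where 29.7% of all genes did so, and lower for 0, where 5.68% did. The 3 comparisons share the 4 combination tumors and are not independent of each other.

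The effect of PD1 mAb differed with and without α-KG for 5 collagens. In the test of the interaction, 5 of 23 genes were higher and 0 lower, where 7.99% of all genes were higher and 3.13% lower. They were Col5a3 (1.36 ± 0.29, adjusted p = 0.00962), Col16a1 (1.21 ± 0.32, adjusted p = 0.0261), Col9a3 (1.16 ± 0.24, adjusted p = 0.00811), Col11a2 (1.07 ± 0.27, adjusted p = 0.023) and Col5a1 (0.63 ± 0.17, adjusted p = 0.0302). Col5a1 no longer passed when tumors were centered on their medians. The count was 2 without PD1 mAb 4, where 5.44% of all genes were called. It was 3 without PD1 mAb 1 (6.14% of all genes), α-KG 3 (5.64%) or combination 2 (6.94%).

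**Figure D5:**
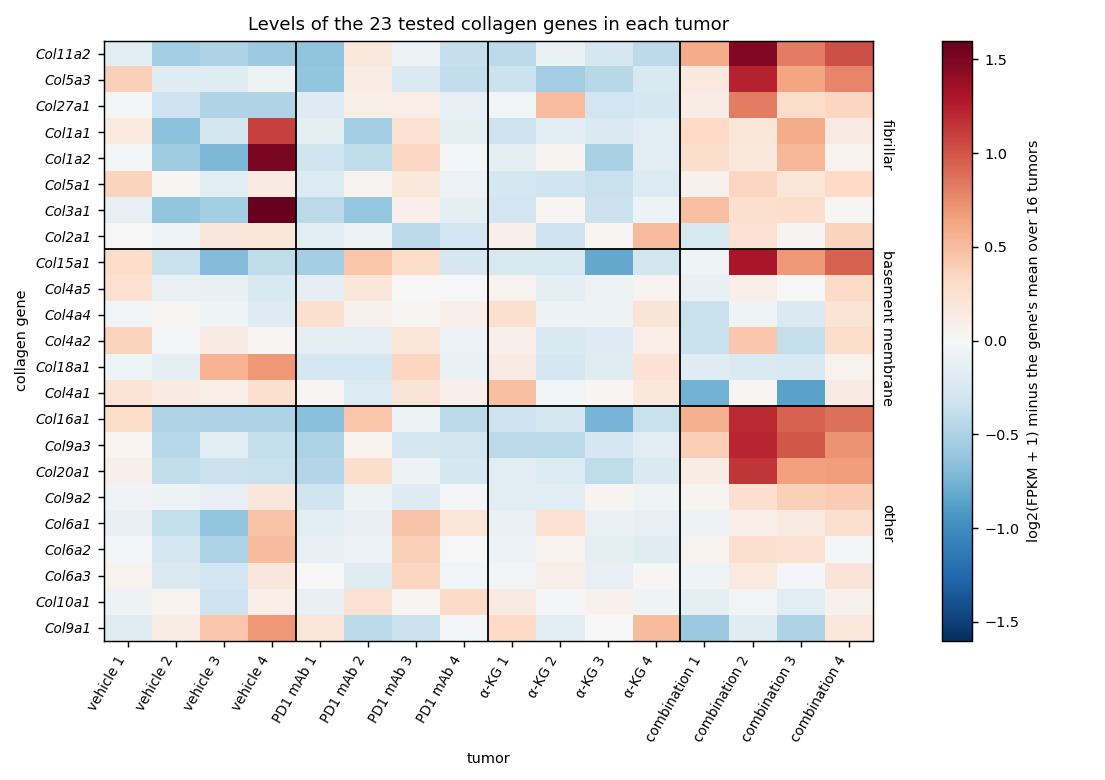
Level of each of the 23 tested collagen genes (y axis, by class) in each tumor (x axis), as log2(FPKM + 1) minus the mean of the gene over 16 tumors (color, red above and blue below the mean). The red block of Col11a2, Col5a3, Col15a1, Col16a1, Col9a3 and Col20a1 lies in combination 2, 3 and 4, the red cells of Col1a1, Col1a2 and Col3a1 in vehicle 4, and the darkest blue cells of Col4a1 in combination 1 and 3.

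The genes that rose were richer in G and C than the other collagens. The median GC content of their transcripts was 60.4%, against 56.2% for the other 15 tested collagens and 50.2% for all genes. Across the 23 collagens the log2 difference from vehicle had a Pearson's r of 0.394 with GC content, against 0.0343 across 12563 genes, given as a description because genes share libraries and chains. On chromosome 4, 4 of 4 tested collagens (Col16a1, Col15a1, Col27a1 and Col9a2) were higher as deposited, where 32.8% of 807 tested genes on it were. Only chromosomes holding a collagen that rose were examined, so this share was selected by the calls it counts. On chromosome 2 it was 2 of 3, and on chromosomes 9 and 17 it was 1 of 1 each. Of the 4 genes on chromosome 4, only Col16a1 kept its call under every scaling. An effect of the chromosome was not tested.

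Enzymes that process collagen were called in both directions. Of 19 tested members of this list, 4 were higher and 4 lower in the combination than in vehicle, where 34.9% of all genes were higher and 10.5% lower. The split was 1 and 8 when centered, where 17.1% of all genes were higher and 37.4% lower. At the same FPKM sum it was 6 and 1, where 49% of all genes were higher and 1.95% lower. Adamts14, which cleaves the amino propeptide of fibrillar procollagens, rose from 1.33 ± 0.78 to 3.9 ± 1.24 FPKM (log2 difference 1.09, adjusted p = 0.00511). Loxl3, a crosslinking oxidase, rose by 0.62 and Bmp1, the carboxy propeptidase, by 0.52 (adjusted p = 0.0339 and 0.0201), and neither passed when centered. P4hb, the shared subunit of the prolyl hydroxylases that use α-KG, fell from 502 ± 16.5 to 350 ± 52.5 FPKM (log2 difference -0.53, adjusted p = 0.000823). Loxl2 (-0.44) and Ppib (-0.41), a prolyl isomerase for collagen, were lower too (adjusted p = 0.00588 and 0.000957). The catalytic subunits P4ha1 and P4ha2 both had a difference of 0.27 and did not pass (adjusted p = 0.0705 and 0.259).

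With α-KG alone, 0 of these 19 enzymes were higher and 3 were lower than in vehicle, 0 and 5 when centered and 0 and 1 at the same FPKM sum. Of all genes 8.4% were higher and 7.53% lower, 8.21% and 10.7% when centered and 6.56% and 3.14% at the same FPKM sum. The 3 lower as deposited were Loxl2 (-0.56, adjusted p = 0.00311), the lysyl hydroxylase Plod2 (-0.46, adjusted p = 0.0171), which uses α-KG, and P4hb (-0.35, adjusted p = 0.0232). The level of Plod2 went from 75.8 ± 1.49 to 55.1 ± 6.44 FPKM.

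With α-KG alone, 4 of 14 tested collagen-degrading enzymes and inhibitors were higher than in vehicle and 0 lower, where 8.4% of all genes were higher, and 3 and 0 when centered or at the same FPKM sum. Among the 4 were the gelatinase Mmp9, which rose from 0.613 ± 0.0727 to 15.5 ± 6.3 FPKM (log2 difference 3.27, adjusted p = 1.13e-06), the collagenase Mmp8, from 1.47 ± 0.774 to 11.4 ± 2.24 (2.36, adjusted p = 4.86e-05), and Mmp19 (1.54, adjusted p = 0.000862). In the combination Mmp9 and Mmp8 were at 1.55 ± 1.04 and 2.65 ± 1.56 FPKM. There 4 members were higher than in vehicle and 1 was lower, and 4 and 4 when centered. Of all genes 34.9% were higher and 10.5% lower in that comparison, and 17.1% and 37.4% when centered. Mmp12, an elastase of macrophages (1.66, adjusted p = 0.00677), the collagenase Mmp13 (1.44, adjusted p = 0.00582) and Mmp19 (1.26) were higher, and the inhibitor Timp3 was lower (-0.41, adjusted p = 0.0126). Mmp8 and Mmp9 are made largely by neutrophils and Mmp12 by macrophages, and the summed leukocyte genes were 429 to 463 FPKM in α-KG against 38.1 to 158 in vehicle, whose part in these differences was not tested.

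The lists that follow hold few genes each. In the combination against vehicle 34.9% of all genes were higher and 10.5% lower. When centered these shares were 17.1% and 37.4%. Of 6 tested collagen receptors 3 were higher in the combination than in vehicle and 0 lower, and 2 and 2 when centered. Lair1, an inhibitory collagen receptor of leukocytes, rose from 0.65 ± 0.502 to 5.92 ± 3 FPKM (2.00, adjusted p = 0.000476), the integrin chain Itga10 by 0.85 (adjusted p = 0.00451) and the receptor kinase Ddr2 by 0.79 (adjusted p = 0.0186, lost when centered). Of 17 genes of the TGF-β pathway, a main inducer of fibrillar collagens, 5 were higher and 0 lower, a share below the 34.9% of all genes, and 2 and 4 when centered, with Tgfb1 at 26.4 ± 5.82 in vehicle and 56.1 ± 22.5 in the combination (0.99, adjusted p = 0.0024). Tgfb1 was also higher with α-KG alone, at 47.9 ± 2.99 (0.86, adjusted p = 0.0142), and its relation to the collagens was not tested.

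Of 10 other basement membrane genes 4 were higher and 0 lower in the combination than in vehicle, near the 34.9% of all genes, led by the proteoglycan Agrn (0.80, adjusted p = 0.0152) and the laminin chains Lama5 (0.61) and Lamc3 (0.44), and 0 higher and 4 lower when centered. Of 10 genes of fiber-associated matrix 3 were higher and 1 lower, also near the shares of all genes, 0 and 4 when centered and 3 and 0 at the same FPKM sum. Fbln5, an elastic fiber protein, was lower as deposited and when centered (-0.45, adjusted p = 0.00726, and -0.77 when centered). Thbs1, a matricellular glycoprotein, was at 6.82 ± 4.73 FPKM in vehicle, 35.6 ± 10.1 in PD1 mAb, 126 ± 55.4 in α-KG and 13.3 ± 5.39 in the combination.

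Within groups, Col1a1 and Col4a1 were each set against a fibroblast and an endothelial marker score, over deviations of the 16 tumors from their group means on the log2 scale, in 4 relations. With the endothelial score Pearson's r was 0.675 (permutation p = 0.00785, adjusted over the 4 relations 0.0314) and Spearman's rho 0.703 (permutation p = 0.0218, adjusted 0.0616). With the fibroblast score r was 0.776 (permutation p = 0.0288, adjusted 0.0576) and rho 0.644 (permutation p = 0.0308, adjusted 0.0616). With the 2 tumors whose score was most distant from its median left out, r fell to 0.498 and 0.427 (permutation p = 0.176 and 0.161), so neither relation held without those tumors. Col4a1 had r of 0.16 with the endothelial score (permutation p = 0.537, rho 0.218, permutation p = 0.44) and -0.282 with the fibroblast score (permutation p = 0.284, rho -0.25, permutation p = 0.402).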

How the data were processed

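RNA of 16 tumors, 4 in each of 4 groups, was sequenced from poly(A)-selected, dUTP-stranded libraries on DNBSEQ. The authors deposited 1 table of FPKM values per gene and tumor. The submitters' processing notes name HISAT, Bowtie2 and mm10, while the program and annotation behind the FPKM, and whether counting used strand, are not given in the sources used here. The depth of the tumors is unknown, since low values did not come in whole steps of 1 read (24.7% lay within 0.15 of a whole number in 818 genes, where 30% would by chance), so no counting interval is given.

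The collagen genes and the gene lists were chosen with earlier results of these data known. Genes with at least 0.5 FPKM in at least 4 tumors (12850) were tested as log2(FPKM + 1) with limma 3.58.1 in R 4.3.3, in 1 fit over all 16 tumors with empirical Bayes moderation and Benjamini-Hochberg adjustment over all genes tested, called at 0.05. Differences on this scale understate the change of low genes. The errors of levels are SD and those of log2 differences SE, with 4 tumors in each group. Fibrillar and type IV chains with a group mean of at least 5 FPKM, the 5 other collagens of highest mean and every called collagen were named, with up to 3 called genes per direction from each related list. Further genes, among them Col1a2, Col3a1, Col2a1, Col9a1 and Col18a1, were named after their values were seen. The ratio of Col4a1 to Col1a1 was tested by exact permutation of tumors and correlations by 100000 permutations within groups (Python 3.11.15, numpy 2.4.6, scipy 1.17.1, pandas 2.3.3). GC content and length were taken for 95.8% of genes. The main fit over 16 tumors was tested on simulated data, in the comparisons of the combination and of PD1 mAb with vehicle. The fits under other settings were not. The scaling, filter, pseudocount, samples in the fit, replicate block and each left-out tumor were varied.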

Additional observations from a re-analysis of the deposited data

Results flagged for a closer look

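In 7 of 60 groups of 4 tumors, over the 15 named collagens, 1 tumor lay farther from the others than Dixon's 95% critical value allows, where chance gives about 5% of groups, or 3 of 60. Vehicle 1 was high for Col16a1 (18.06 FPKM, next 10.14), Col5a3 (3.17, next 2.04) and Col20a1 (1.46, next 0.83). Vehicle 4 was high for Col1a2 (7.56, next 1.93) and Col3a1 (9.98, next 1.39). PD1 mAb 3 was high for Col4a2 (8.21, next 6.5), and α-KG 3 was low for Col15a1 (1.52, next 2.65).

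The effect of PD1 mAb differed with and without α-KG in the interaction test for 5 collagens, with log2 differences of 1.36 for Col5a3, 1.21 for Col16a1, 1.16 for Col9a3, 1.07 for Col11a2 and 0.63 for Col5a1.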

How the results depend on the processing

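For α-KG against vehicle, the 1 collagen called became 2 after quantile normalization, where 20.9% of all genes were called. It became 0 at the same FPKM sum (9.7% of all genes), in a fit of these 2 groups alone (13.5%) and with the replicate block (12.9%). When 1 tumor was left out it became 0 to 1. For the combination against PD1 mAb, the 6 became 0 in a fit of these 2 groups alone, where 4077 of all genes had an unadjusted p under 0.05, and 2 to 7 when 1 tumor was left out. The 5 collagens of the interaction became 2 to 7, those of the combination against vehicle 7 to 13 and against α-KG 7 to 10, and those of PD1 mAb against vehicle stayed at 0. With 1 tumor left out, the share of all genes called was 5.44% to 18.4% in the interaction. It was 33.2% to 51.7% in the combination against vehicle, 26.9% to 40.5% against α-KG and 1.77% to 22.9% against PD1 mAb. For α-KG against vehicle it was 9.77% to 20.4% and for PD1 mAb against vehicle 0% to 6.89%. In the combination against vehicle Col5a1 changed sign after quantile normalization (-0.31, adjusted p = 0.0267) and Col9a2 after quantile normalization (-0.011), centering (-0.014) and removal of GC content and length (-0.035), the last chosen after seeing the data. The correlation of Col1a1 with the endothelial score was 0.498 without 2 tumors. The cause of these changes was not tested, and without counts the depth sets no limit that can be given. Tumors share only a number across groups, since the deviations of 24 same-numbered pairs had r of -0.642 to 0.411 and 3 of 16 tumors matched best with their own number. The replicate block gave 10 collagens called in the combination against vehicle (8 higher, 2 lower), where 33% of all genes were higher and 9.29% lower. It gave 6 against PD1 mAb (11.9% of all genes called), 8 against α-KG (34.9%) and 4 in the interaction (7.86%). In PD1 mAb against vehicle it gave 0, as among all genes.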

Other observations

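Among the collagens too low for the test, Col7a1, the anchoring fibril collagen of skin, was at 0.28 to 0.6 FPKM in the combination, 0.04 to 0.18 in vehicle, 0.05 to 0.31 in PD1 mAb and 0.03 to 0.19 in α-KG. With no filter on low values it was called higher in the combination than in vehicle, as was Col4a3. The split was then 10 higher and 1 lower, where 25% of all genes were higher and 6.68% lower. Col7a1 and Col4a3 were chosen after their values were seen. Col19a1 was at 0.34 FPKM in vehicle 4 and at most 0.03 in every other tumor. Col3a1 was 0.942 of Col1a1 on the FPKM scale in vehicle 4 and 0.233 to 0.464 of it in the other 15 tumors.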
